A study of Mus musculus with 6 samples.

Results

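The interferon-inducible p200 genes Ifi202b, Ifi203, Ifi204, Ifi205, Mndal and Aim2 were followed in splenic B cells of lupus-prone mice. The members were chosen by name, and 6 of 6 had a row in the deposited table of 41669 gene symbols. RNA came from 3 female and 3 male NZB/W F1 mice, each a separate animal with lupus-like disease at the late stage. NZB/W F1 is a first-generation hybrid of the NZB and NZW strains, so each mouse carries an NZB and an NZW copy of this autosomal gene cluster. Splenic B cells were taken on a positive-selection column and kept with CpG for 24 h in culture; CpG DNA is read by Toll-like receptor 9 and drives B cell activation. All 6 libraries share strain, disease, stage and CpG culture, and sex is the only labelled difference between the groups. The sources used here do not give the ages of the mice, and no library is from an unstimulated culture, a healthy strain or an early stage.

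The p200 family encodes proteins that carry an N-terminal PYRIN domain, one or more C-terminal HIN-200 domains that bind DNA, or both, and many of its genes are induced by interferon. Aim2 senses DNA in the cytosol and assembles the inflammasome with the adaptor encoded by Pycard and with caspase-1, while the Ifi202b protein lacks a PYRIN domain, binds DNA and opposes Aim2. Ifi202b has been put forward as a candidate gene of Nba2, a lupus susceptibility interval of NZB origin. Ifi204 has been tied to cell growth control, DNA sensing and myeloid cells, and Ifi203, Ifi205 and Mndal are related genes whose roles in B cells are less well defined.

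In the mouse build GRCm38 the members lie on chromosome 1 between 173350879 and 174031810, a span of 680.9 kb (GENCODE M21). Aim2 (173350879 to 173466040) is on the plus strand. The other 5 are on the minus strand: Ifi204 (173747293 to 173766943), Mndal (173849126 to 173942491), Ifi203 (173920407 to 173942672), Ifi202b (173962568 to 173982744) and Ifi205 (174011998 to 174031810). The annotated Mndal gene overlaps Ifi203 by 22085 bp on the same strand, and it also spans Ifi211, whose row in the deposited table is named Mnda. The RefSeq starts of Mndal used for its promoter lie inside its span, on the low-coordinate side of Ifi211.

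Promoters of the members from RefSeq GRCm38.p6, 250 bases before to 50 after each start, were searched on both strands for GAAA, any 2 bases and GAAA again, the core of the interferon-stimulated response element (ISRE) bound by interferon-activated factors, and for TTCNNNGAA, the interferon-gamma-activated site (GAS) bound by STAT dimers. The promoters come from the C57BL/6J reference, not from NZB or NZW DNA. Stretches around the matches are shown because the members share, or do not share, this element; capitals mark the match, and each stretch is on the minus strand.
Ifi203, chr1:173942473-173942572: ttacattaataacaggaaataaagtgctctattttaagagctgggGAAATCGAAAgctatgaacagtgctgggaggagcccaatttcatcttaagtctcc
Mndal, chr1:173880169-173880268: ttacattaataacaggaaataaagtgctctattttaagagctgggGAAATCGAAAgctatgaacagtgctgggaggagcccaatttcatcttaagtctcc
Ifi205, chr1:174031835-174031934: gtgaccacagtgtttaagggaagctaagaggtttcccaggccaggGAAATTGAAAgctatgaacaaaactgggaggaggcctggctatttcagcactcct
Ifi202b, chr1:173982938-173983037: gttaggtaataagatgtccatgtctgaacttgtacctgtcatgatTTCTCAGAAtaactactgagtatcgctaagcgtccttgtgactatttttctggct
The first 3 stretches hold the ISRE core, and the Ifi202b stretch holds the GAS match. The Ifi203 and Mndal stretches were equal at 100 of 100 bases, inside a run of 139 identical bases in their promoters, and the Ifi205 stretch was equal to either at 47 of 100 bases. Of the 5 members with a promoter entry (Ifi204 has none), 3 held the ISRE core (Ifi203, Mndal and Ifi205), while Ifi202b and Aim2 had no match in these windows. Among 6 other genes of the cluster with an entry, 5 held it, against 3.99% of 27025 genes with a promoter entry. The GAS letters were found in Ifi202b alone of the 11 cluster genes, and in 9.55% of all genes. A match is a description of the letters, and no binding was measured.

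Because p200 genes arose by duplication, their transcripts share sequence, and a read from a shared stretch cannot be given to 1 gene with certainty. Ifi202b and Aim2 were the most distinct members: 1.20% and 4.89% of their 31-base words were also present in transcripts of another gene. The share was 21.6% for Ifi203, 22.1% for Ifi205, 28.7% for Mndal and 34.0% for Ifi204. Ifi204 shared most with Ifi211 (18.9% of its words), as did Ifi205 (20.5%) and Mndal (11.9%), and Ifi203 shared most with the pseudogene Ifi203-ps (15.9%). Only 21.1% of the words of Ifi211 (Mnda) were its own. Values of Ifi203, Ifi204, Ifi205, Mndal and Mnda are therefore uncertain to the extent that estimated counts were split among them. The same caution holds for the other cluster genes matched to GENCODE M21, whose share ran from 14.8% (Ifi207) to 47.7% (Ifi203-ps). Among them Ifi209 (row Pyhin1) shared 47.2% of its words, most of them with Ifi214 (46.8%). Whether NZB and NZW alleles were counted at equal rates against reference transcripts was not tested.

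**Figure D1:**
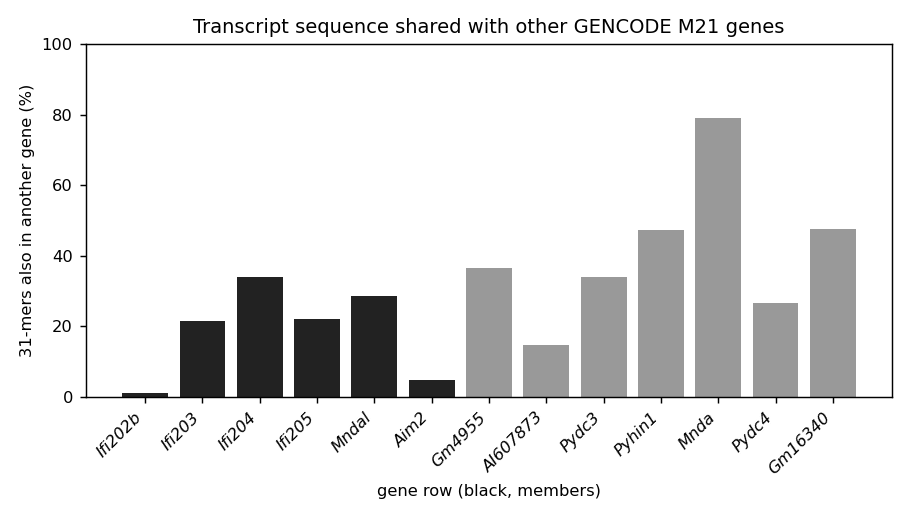
Percent of the distinct 31-base words in a gene's annotated transcripts that also occur in transcripts of another gene (y axis), for the 6 members (black) and 7 other cluster genes matched to GENCODE M21 (grey). Ifi202b (1.20%) and Aim2 (4.89%) stand lowest and Mnda (78.9%) highest.

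The estimated counts summed to between 24089561 and 35659883 per library, so 3 counts correspond to 0.0841 to 0.125 CPM. Values below are CPM, the count scaled to a column total of 1000000, and the lowest count of any member was 36.8 (Ifi202b, female replicate 1). Female replicate 3 stood apart in composition, with a TMM scaling factor (the trimmed mean of M values) of 0.816 against 0.993 to 1.07 in the others. B cell identity was checked on 11 markers, of which 11 reached 3 counts in at least 1 library and 0 were called between the sexes (edgeR). Without a call, Fcer2a was higher in every male (log2 fold change -1.65, unadjusted p = 0.00994, adjusted p = 0.999 in edgeR) and Cr2 in every female (0.35, unadjusted p = 0.0268, adjusted p = 0.999 in edgeR). On this scale 7.55% of tested genes had every male above every female. The share with every female higher was not counted, so Cr2 cannot be set against it. Ms4a1 averaged 1549 CPM and Pax5 539.5, and Cd79a, Cd79b, Cd22, Blk, Cd74 and Fcer2a were lowest in female replicate 3. In bulk RNA, fewer cells of a type and less RNA per cell cannot be told apart.

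The members fell into an abundant and a scarce group. Per kilobase of the longest annotated transcript, Mndal averaged 76.9 ± 18.5 CPM per kb (SD, n = 6), Ifi203 57.1 ± 14.5 and Aim2 45.2 ± 2.65. Ifi204 averaged 2.79 ± 0.816 CPM per kb, Ifi202b 2.17 ± 1.56 and Ifi205 0.632 ± 0.165. The step between the groups was the only one without overlap of the libraries: Aim2 per kilobase was 16.8-fold above Ifi204 and higher in 6 of 6 libraries.

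Neighbours in this order were otherwise close. Mndal was 1.35-fold above Ifi203 per kilobase (6 of 6 libraries), Ifi203 1.22-fold above Aim2 (5 of 6), Ifi204 1.51-fold above Ifi202b (5 of 6) and Ifi202b 2.89-fold above Ifi205 (6 of 6). By an exact 2-sided sign-flip permutation test over 6 libraries, adjusted over the 5 neighbour pairs, p was 0.0521 for the 3 steps with the same direction in every library and 0.125 for the other 2. Those 3 steps were at 0.03125 before adjustment, the smallest p that 6 libraries allow, and that p passes 0.05 after adjustment only if at least 4 of the 5 pairs reach it. The test therefore could not separate these 3 steps, which differ widely in size. With the median transcript length in place of the longest, Aim2 came first and Ifi203 lay below it by 2.30 on the log2 scale, so the order among the abundant members rests on the length used. The separation of abundant from scarce members held with either length.

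**Figure D2:**
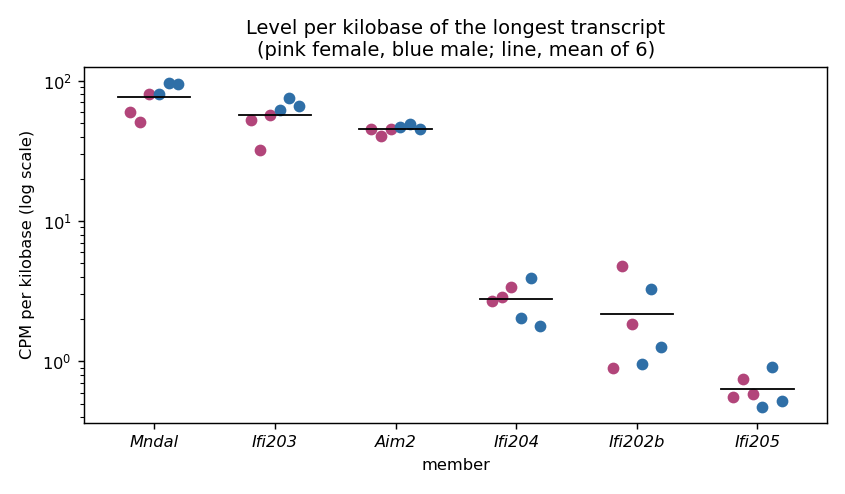
Level of each member in CPM per kilobase of its longest transcript (log y axis), 1 point per library (pink female, blue male) with the mean of 6 as a line. Mndal, Ifi203 and Aim2 lie between 32.2 and 96.5 CPM per kb, and Ifi204, Ifi202b and Ifi205 between 0.476 and 4.81.

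The comparison of females with males asks whether this lupus-linked cluster differs by sex in activated B cells of diseased mice. None of the 6 members passed an FDR of 0.05 in edgeR's quasi-likelihood test (adjusted p = 0.999 for each, unadjusted p from 0.215 to 0.786). The background share was small: 0.0575% of 12172 tested genes were called, and 352 genes had an unadjusted p under 0.05. DESeq2 and limma-voom also called 0 of the 6. The log2 fold change (female over male) was above 0 for 4 members and below 0 for 2, and its median was 0.09 against 0.00 over all tested genes.

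Ifi203, the most abundant member in CPM, was at 195.6, 120.8 and 212.1 CPM in female replicates 1 to 3 and at 230.2, 281.2 and 246.6 CPM in male replicates 1 to 3. All 3 males lay above all 3 females, with female replicate 2 the lowest library and male replicate 2 the highest. The log2 fold change was -0.36 ± 0.26 (SE, 95% interval -0.97 to 0.26, adjusted p = 0.999).

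Mndal, which shares promoter and transcript sequence with Ifi203, was at 120.5, 102.2 and 163.1 CPM in the females and 163.2, 195.6 and 190.3 CPM in the males. The groups did not overlap, by a margin of under 1 CPM between female replicate 3 and male replicate 1. Its log2 fold change was -0.33 ± 0.26 (95% interval -0.94 to 0.27, adjusted p = 0.999). Summed with Ifi203, a step chosen after the data were seen because of their shared sequence, the pair was at 304.8 ± 76.7 CPM in females and 435.7 ± 41.7 in males (SD, n = 3). That sum was taken on CPM of the column total only. With TMM scaling female replicate 3 was at 259.9 CPM for Ifi203 and 199.8 for Mndal, against 267.8 and 186.3 in male replicate 2. The ratio of Ifi203 to Mndal stayed between 1.18 and 1.62 over the 6 libraries.

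Aim2, the DNA sensor of the inflammasome, was the steadiest member, at 128.3, 115.3 and 127.5 CPM in the females and 131.8, 138.4 and 129.1 CPM in the males. The highest library was 1.20-fold above the lowest, and 9.91% of tested genes had a smaller SD of log2 CPM. Its log2 fold change was 0.04 ± 0.16, with a 95% interval of -0.32 to 0.41, the narrowest of the members. With scaling by library totals only it was -0.11, and without female replicate 3 it was also -0.11.

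On CPM of the column total, Ifi203, Mndal and Aim2 were 3 of 6 members with every male above every female, where 7.55% of tested genes showed this. With TMM scaling 0 of 6 did, where 4.57% of tested genes did. The change came from female replicate 3, whose TMM-scaled levels were 259.9 CPM for Ifi203, 199.8 for Mndal and 156.3 for Aim2. The absence of overlap in these 3 genes thus depended on how that library was scaled.

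Ifi202b, the Nba2 candidate, was scarce and the most variable member, at 1.53, 8.17 and 3.11 CPM in the females and 1.62, 5.55 and 2.16 CPM in the males. Its highest library was 5.35-fold above its lowest, and the spread ran within both sexes, with female replicate 2 and male replicate 2 high. The log2 fold change of 0.60 ± 0.69 had a 95% interval of -1.01 to 2.22 (adjusted p = 0.999), and without female replicate 2 it was -0.15. Differences of the size that this interval spans could not be resolved with 3 mice per sex.

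Ifi204 was at 6.17, 6.58 and 7.80 CPM in the females and 4.67, 9.09 and 4.09 CPM in the males. The 3 females were close together, and the males lay on both sides of them on this scale, while with TMM scaling female replicate 3 was the highest library. The log2 fold change was 0.37 ± 0.38 (95% interval -0.52 to 1.26).

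Ifi205 was at 1.82, 2.43 and 1.91 CPM in the females and 1.56, 2.99 and 1.70 CPM in the males, again with both the highest and the lowest library among the males. Its log2 fold change was 0.13 ± 0.39 (95% interval -0.78 to 1.04). With library totals only it was -0.016, and without male replicate 1 it was -0.048.

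**Figure D3:**
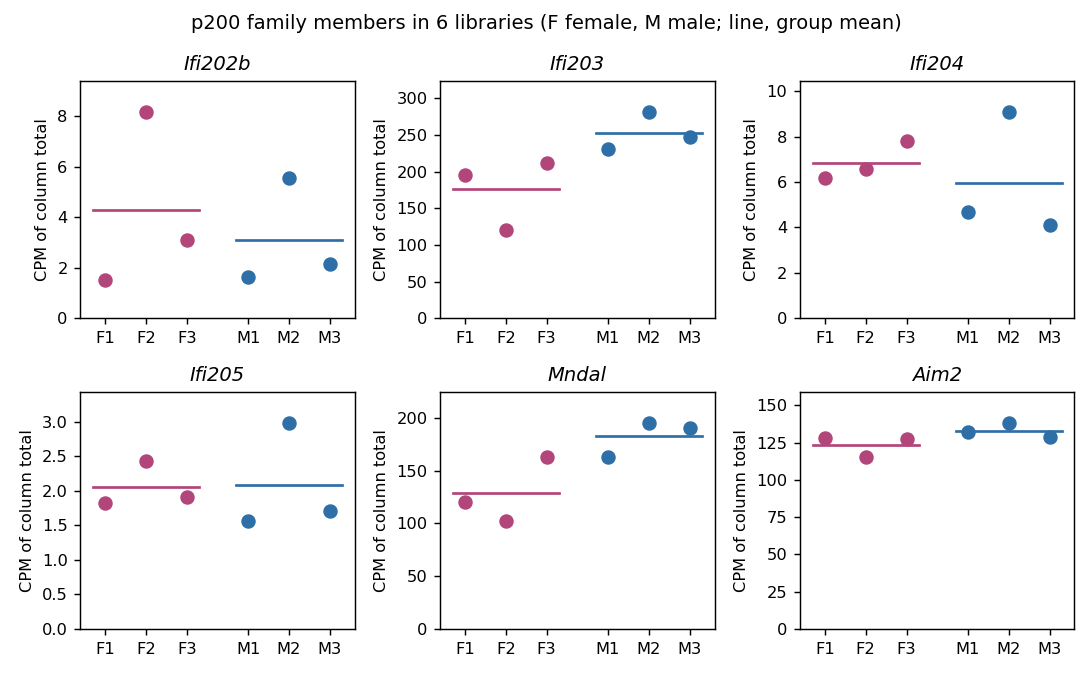
CPM of the column total of each member (y axis, from 0) in female libraries F1 to F3 (pink) and male libraries M1 to M3 (blue), with the group mean of 3 as a line. Male replicate 2 is the highest library for 5 of 6 members on this scale (2 of 6 with TMM scaling), and Ifi202b is highest in female replicate 2 at 8.17 CPM.

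The 8 other rows of the cluster showed no call either (adjusted p from 0.999 to 1.00, edgeR). They are deposited under older symbols, of which RefSeq synonyms match 7: Pyhin1 (Ifi209), Mnda (Ifi211), Pydc4 (Ifi213), Pydc3 (Ifi208), AI607873 (Ifi207), Gm4955 (Ifi206) and Gm16340 (the pseudogene Ifi203-ps). BC094916 was listed with the cluster but matched neither annotation, so it has no coordinates here. Pyhin1 was the most abundant of them, at 144.7, 130.1 and 189.2 CPM in females and 193.8, 294.8 and 196.3 in males (log2 fold change -0.39 ± 0.27, 95% interval -1.03 to 0.25). Mnda was at 52.4, 68.7 and 81.2 CPM in females and 48.6, 94.0 and 43.3 in males (0.30 ± 0.36). The remaining 6 rows averaged from 2.42 CPM (Gm4955) to 9.04 CPM (BC094916), and over all 8 rows the log2 fold change was above 0 in 2 and below 0 in 6 (median -0.05). That median was 0.19 without male replicate 2 and -0.36 without female replicate 3, and -0.20 with library totals only. It was -0.12, -0.16 and -0.18 without female replicate 1, male replicate 1 and male replicate 3, so its sign and size rest on single libraries.

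**Figure D4:**
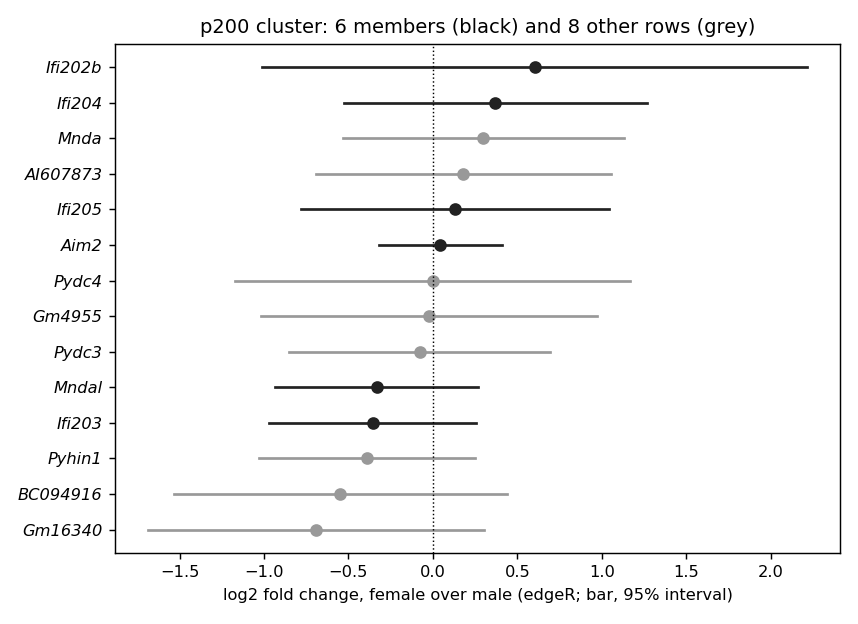
Log2 fold change of female over male (x axis, point) with its 95% interval (bar) from edgeR, for 6 members (black) and 8 other cluster rows (grey). Every interval includes 0, from Gm16340 at -0.69 to Ifi202b at 0.60.

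Several rows of the cluster were highest or lowest in the same mouse, in part depending on the scaling. Male replicate 2 was the highest library for 5 of 6 members and 7 of 8 other rows on CPM of the column total, while 23.8% of all tested genes were highest there. With TMM scaling it was the highest for 2 of 6 members (Ifi203 and Ifi205) and 5 of 8 other rows, beside 18.1% of all tested genes, and Ifi204, Mndal and Aim2 were highest in female replicate 3, as were 30.2% of all tested genes. Female replicate 2 was the lowest library for 3 of 6 members (Ifi203, Mndal and Aim2) and 5 of 8 other rows, while 9.35% of all tested genes were lowest there. With TMM scaling the same 3 members and 4 of 8 other rows were lowest there, beside 10.4% of all tested genes. Rows of the cluster share sequence, so these counts are not independent, and they were noticed in the data.

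The members departed from each other in female replicate 2. On TMM-scaled log2 CPM centred on each gene's mean over the 6 libraries, Ifi203 was at -0.77 and Mndal at -0.56 there. Ifi202b was at 1.42 in the same library and Ifi205 at 0.28. Ifi204 was at 0.10 there, and was low in male replicates 1 and 3 (-0.47 and -0.64).

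Closeness of profile was measured as the root mean square (RMS) difference between centred log2 CPM profiles over 6 libraries, against 6918 named genes with a mean of at least 5 CPM. For Ifi203 the closest were Tmem71 (RMS 0.11), Herc6 (0.12) and Parp9 (0.12), the last 2 known as interferon-stimulated genes, and Mndal was at 0.14 with 5 genes closer. For Mndal they were Spata6 (0.06), Samd9l (0.09), an interferon-stimulated gene, and Eldr (0.10).

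For Ifi204 the closest gene was its cluster neighbour Mnda (0.11), with which it shares transcript sequence, then Fbxo30 (0.16) and Mafg (0.18). Ifi205 lay closest to Trnt1 (0.07), Lrrfip2 (0.09) and Mdn1 (0.09), and Aim2 to Hn1l (0.03), Pdha1 (0.04) and Rad54b (0.04). On this centred scale Aim2 ran from -0.14 in female replicate 2 to 0.28 in female replicate 3. Ifi202b had no close match: Ms4a6d was at 0.35, Ccl3, a chemokine gene, at 0.39 and Akap13 at 0.47, and the nearest member, Ifi205, at 0.63. All of these profiles share library depth and scaling.

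**Figure D5:**
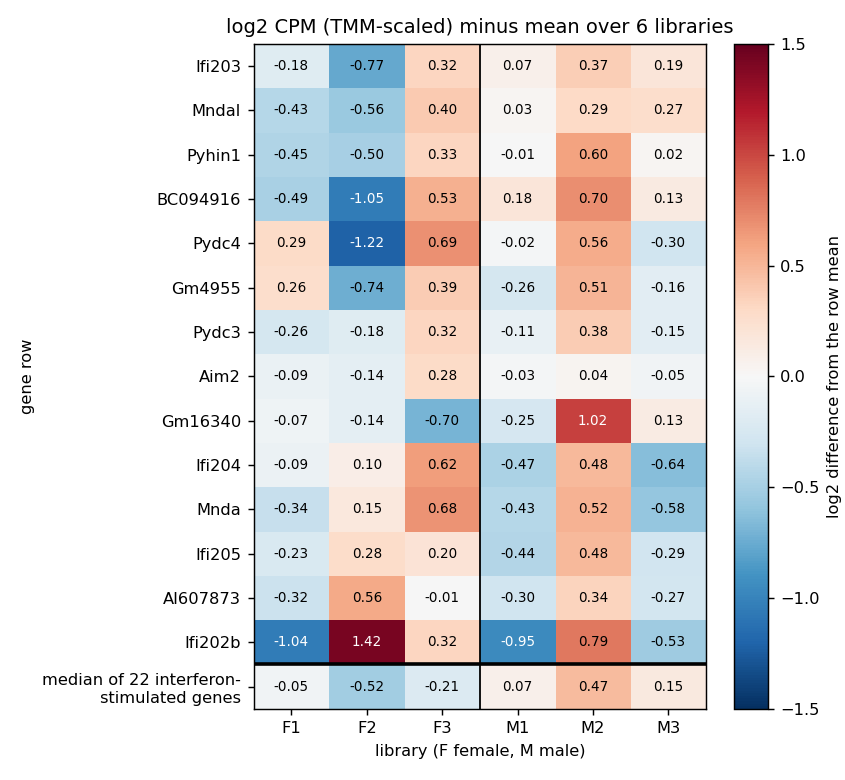
TMM-scaled log2 CPM minus the row's mean over 6 libraries (colour and number), for 14 cluster rows and, below the line, the median over 22 interferon-stimulated genes. Columns are libraries (F female, M male), and rows were ordered after their values were seen. Ifi203 and Mndal are low in F2 (-0.77 and -0.56), where Ifi202b is high (1.42).

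Interferon-stimulated genes gave a yardstick for the interferon response in the same libraries. Of 33 listed genes 22 were tested, 0 were called, and 21 of 22 had a log2 fold change below 0 (median -0.49, against 0.00 over all tested genes). The median centred level of these genes was -0.52 in female replicate 2 and 0.47 in male replicate 2. Ifi203 and Mndal were lowest in the former and, on CPM of the column total, highest in the latter. Female replicate 3 did not follow this: the median was -0.21 there, while Ifi203 was at 0.32 and Mndal at 0.40 on the same centred scale. With TMM scaling Mndal was highest in female replicate 3. Trim30a, an interferon-induced gene, was at 180.2, 132.4 and 180.9 CPM in females and 186.1, 247.5 and 205.1 in males. The classical targets Ifit1 and Isg15 had few counts. Ifit1 averaged 0.162 ± 0.0558 CPM in females and 1.02 ± 0.848 in males (SD, n = 3). Isg15, named after its values were seen, stayed at or below 0.0317 CPM. The female Ifit1 levels lay near the floor of 3 counts (0.0841 to 0.125 CPM), and Isg15 lay below it. Some B cell genes were also low, with Cd74 at 12.0 and Cd79a at 17.0 CPM against 1549 for Ms4a1. Whether low rows reflect little RNA or the way reads were counted was not tested. Without female replicate 2 the list's median log2 fold change was -0.24, without female replicate 1 it was -0.72, without male replicate 2 it was -0.32, and with a filter of 1 CPM in 3 libraries -0.29. The interferon response was read from RNA alone, and its part in the Ifi203 and Mndal levels was not tested.

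The receptor and signalling list for type I interferon had 11 of 12 genes tested, 0 called, 4 positive and 7 negative (median -0.23, and -0.46 to -0.06 with 1 library left out, the extremes being without female replicates 1 and 3; without male replicate 1 or 2 it was -0.10). Jak1, the receptor-associated kinase, averaged 624.2 ± 63.5 CPM in females and 667.1 ± 54.6 in males. Stat2, a part of the complex that binds the ISRE, averaged 12.0 ± 5.04 and 19.3 ± 2.22 CPM (log2 fold change -0.59 ± 0.26, adjusted p = 0.999 in edgeR). The sexes did not overlap on CPM of the column total, where 7.55% of tested genes had every male above every female. Its lowest library was female replicate 3 (7.45 CPM), and overlap with TMM scaling was not checked for this gene.

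Partners of Aim2 and of cytosolic DNA sensing had 18 of 21 genes tested and 0 called, with 5 positive and 13 negative (median -0.17). Casp1, the inflammasome protease gene, averaged 92.3 ± 18.3 CPM in females and 114.9 ± 14.3 in males. The adaptor gene Pycard, named with Gsdmd and Mb21d1 after their values were seen, was at 1.93 to 3.53 CPM over the 6 libraries. The pore-forming substrate gene Gsdmd ran from 0.106 to 2.18 CPM. Neither is given per kilobase, so neither gene is ranked against Aim2. Il1b, whose product caspase-1 matures, was at 0.178 to 3.25 CPM, with the highest value in male replicate 2. The DNA sensor cGAS (row Mb21d1) averaged 5.89 CPM. Without female replicate 3 this list's median log2 fold change was 0.03, without female replicate 1 it was -0.34, without male replicate 1 it was -0.11 and with library totals only -0.29.

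Genes for proteins reported to bind p200 proteins, such as the retinoblastoma family and NF-kB, had 14 of 14 tested and 0 called, with 7 positive and 7 negative (median -0.01). Rb1, the retinoblastoma gene, averaged 334.7 ± 29.5 CPM in females and 354.5 ± 44.7 in males, and its relative Rbl1 256.5 ± 24.0 and 209.3 ± 75.2. Nfkb1 averaged 111.6 ± 33.3 and 119.3 ± 5.42 CPM, and Mdm2 108.4 ± 9.35 and 105.1 ± 15.1.

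Several scarce members are known from myeloid cells, so markers of other cell types were read beside them. Of 16 macrophage and monocyte markers, 13 reached 3 counts in at least 1 library, and the list had a summed level of 8.81 to 18.0 CPM in females and 5.12 to 6.35 CPM in males. Of these, 7 were tested, 0 were called and for 6 of 7 the log2 fold change was above 0 (median 0.92). That median was 0.53 without female replicate 2, 1.85 without male replicate 3, 1.40 without male replicate 1, and 1.89 with no low-count filter. Lyz2, the lysozyme gene of myeloid cells, was at 2.39, 3.32 and 2.20 CPM in females and 0.282, 0.290 and 0.390 in males (log2 fold change 3.15 ± 0.40, adjusted p = 0.0837 in edgeR). Spic, which red pulp macrophages need to develop (2.19 ± 0.45), and Emr1, which encodes the macrophage marker F4/80 (1.84 ± 0.51), were also higher in every female without a call. The complement genes C1qa, C1qb and C1qc stayed below 3 counts in all 6 libraries and were at 0 in female replicate 3 and in the 3 males. The highest sum was in female replicate 2, where Ifi202b was also highest, while male replicate 2, with the next highest Ifi202b level, had 5.22 CPM, within the range of the males. T and NK cell markers summed to 6.95 to 12.7 CPM in females and 5.79 to 8.71 in males. Dendritic cell markers summed to 7.62 to 12.2 CPM in females and 6.40 to 11.8 in males. For both lists the highest sum of each sex was in replicate 2, as was the highest Ifi202b level of each sex. These sums rested on few genes: in female replicate 2 Klrb1c gave 7.39 CPM of the first and Ccr9 7.14 CPM of the second. Cd3d went otherwise, with its highest values in female replicate 1 (4.54 CPM) and male replicate 3 (2.00 CPM). Of 12 T and NK markers 6 stayed below 3 counts in all 6 libraries, as did 1 of 8 dendritic cell markers. Each list had 4 genes tested and 0 called, 2 with a log2 fold change above 0 and 2 below. Cd3d of the first list (1.75 ± 0.64) and Ccr9 of the second (1.61 ± 0.52) were higher in every female. For these 2 genes, as for Lyz2, Spic and Emr1, that was read on CPM of the column total and not checked with TMM scaling. The share of all tested genes with every female higher was not counted. Neutrophil and erythroid markers summed to at most 2.49 CPM. The part of these cells in the levels of Ifi202b, Ifi204 and Ifi205 was not tested.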

How the data were processed

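RNA sequencing of 6 libraries was analysed from the estimated counts per gene symbol that the authors deposited, with a column for each mouse. The submitters' processing notes name kallisto, DESeq2 and the mouse build GRCm38.p6, and the sources used here give no versions, annotation or settings. Estimated counts were rounded for tests.

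Females were compared with males in edgeR 4.0.16 (R 4.3.3): filterByExpr, TMM, estimateDisp, glmQLFit and glmQLFTest, with Benjamini-Hochberg adjustment over 12172 genes at an FDR of 0.05. SE is the log2 fold change over the root of F. Mice were separate animals. Centred log2 CPM used a prior count of 2. The comparison was tested on simulated counts. Alternatives were DESeq2 1.42.0, limma-voom (limma 3.58.1), other scaling, filters and dispersion, the replicate number as a block, and each library left out. Coordinates and 31-base words are from GENCODE M21, promoters from RefSeq GRCm38.p6.

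Named were all members, cluster rows of at least 1 CPM, and per list the 3 most abundant and the 2 with the smallest p, of which a few per list are printed. Pycard, Gsdmd, Mb21d1, Isg15, Fcer1a, Ackr1, C1qa, C1qb, C1qc, Cd79a, Cd79b, Cd22, Blk and Cd74 were named after their values were seen, and the sum of Ifi203 and Mndal and the count of extreme libraries with TMM scaling were added then too. Members and lists were chosen with earlier results of these data known. Intervals cover these mice only, and floors counting error only.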

Additional observations from a re-analysis of the deposited data

How the results depend on the processing

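No member was called in any of the 15 alternatives of the fit. Ifi203 (log2 fold change -0.67 to -0.11), Mndal (-0.70 to -0.14) and Ifi204 (0.12 to 0.81) kept their sign in 15 of 15. Signs changed for Ifi202b without female replicate 2 (-0.15, range with 1 library left out -0.15 to 1.31), for Ifi205 with library totals only (-0.016) and without male replicate 1 (-0.048, range -0.048 to 0.48), and for Aim2 with library totals only (-0.11) and without female replicate 3 (-0.11, range -0.11 to 0.13). Library totals only moved the median of all genes to -0.12. The members' median ran from -0.06 to 0.27. The count of called genes, 7, was 11 without a low-count filter, 35 with DESeq2 and 4 to 12 with 1 library left out, and the cause was not tested. With the replicate number as a block it was 7, with no member called. Same-numbered mice had correlations of deviations of 0.22, 0.04 and 0.07. Female replicates 1 and 2 correlated best with the same-numbered male, and female replicate 3 with male replicate 2 (0.12). These correlations do not settle whether the numbers pair the mice, and the main fit did not pair them.

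With median transcript lengths the log2 difference per kilobase was 1.32 for Mndal over Ifi203, -2.30 for Ifi203 over Aim2, 6.75 for Aim2 over Ifi204 and 1.11 for Ifi202b over Ifi205, each with an adjusted p of 0.0391 in the exact sign-flip permutation test. For Mndal over Ifi203, Aim2 over Ifi204 and Ifi202b over Ifi205 the unadjusted p was at its smallest possible value, 0.03125, with either length, and the adjusted p moved because 4 rather than 3 of the pairs reached it. With 5 libraries that test cannot reach 0.05. Depth limits the scarce members, since Ifi202b held 36.8 to 240.3 estimated counts per library and Ifi205 43.9 to 81.9.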

Other observations

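The p200 cluster stood between nearly silent neighbours. Of 26 protein-coding genes annotated within 500 kb of the outer ends of the members, 19 are olfactory receptor genes, 25 had a row and 18 were at 0 in all 6 libraries. The highest mean was 3.06 CPM (Olfr414, an olfactory receptor gene), then 2.51 CPM (Fmn2, an actin-nucleating formin gene), against 2.07 CPM for the scarcest member, Ifi205, and 214.4 CPM for Ifi203. Of the 5 neighbours tested, 0 were called. On the Aim2 side, the high-affinity IgE receptor gene Fcer1a and the chemokine-binding receptor gene Ackr1 were at 0.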
